A study of Mus musculus with 26 samples.

Results

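Transport of lactate, ketone bodies and glucose across brain cell membranes was followed at the RNA level through 6 genes. Of these, Slc16a1 (MCT1), Slc16a3 (MCT4) and Slc16a7 (MCT2) encode proton-linked monocarboxylate transporters. Bsg encodes basigin, the chaperone of MCT1 and MCT4, and Slc2a1 (GLUT1) and Slc2a3 (GLUT3) encode facilitative glucose transporters. The 6 genes were taken by symbol from the 39179 gene entries of each count table, and all 6 passed the filter on low counts. They were chosen by the level of Slc16a1, which was higher after stroke than after sham on the high-fat diet in an earlier reading of these data, so the values of that contrast are given as a description and no test is attached to them.

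Monocarboxylate transporters move lactate, pyruvate and ketone bodies together with a proton, in the direction set by the gradients. MCT1 is found in brain endothelium and glia, MCT2 mainly in neurons, and MCT4 in strongly glycolytic cells that export lactate, including astrocytes and activated macrophages. MCT1 and MCT4 need basigin to reach the cell surface. GLUT1 carries glucose across the blood-brain barrier and into glia, and GLUT3 is the main glucose transporter of neurons.

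RNA came from cortex of C57BL/6J mice, an inbred strain that gains weight on fatty food. Mice were fed a diet with 60% of its calories from fat (high-fat) or 6% (control), and tissue was taken 3 days after focal ischemia or a sham operation. After 15 weeks of feeding, stroke was sampled in 6 high-fat and 4 control-diet libraries. After 6 weeks, stroke was sampled in 6 high-fat and 4 control-diet libraries and sham in 3 of each. Sham at 15 weeks was not analysed here, and time on the diet cannot be told apart from the age of the mice. Stroke samples hold the core of the lesion and a rim around it, so they mix the core with its surroundings. The labels do not say that libraries come from separate animals, so each p-value weighs a difference against the spread among libraries, which may be partly technical.

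The 26 libraries held between 11400882 and 16962682 counts in genes. Summed neuron, astrocyte and oligodendrocyte markers ran from 3848 to 7742 CPM (counts scaled to a common library size) over all libraries, and no marker was at 0 in any of them. Summed levels of 10 activated phagocyte markers (Cd68, Spp1 and others) were 72.7 to 1861 CPM in 15-week high-fat stroke libraries, 157 to 1287 CPM in 15-week control-diet stroke libraries, 537 to 1321 CPM in 6-week high-fat stroke libraries and 193 to 923 CPM in 6-week control-diet stroke libraries, against 37.7 to 41.7 CPM in high-fat sham libraries and 38.3 to 50.4 CPM in control-diet sham libraries. The lowest 15-week values belong to high-fat replicate 1 and control-diet replicate 3, which are called the weakly injured libraries here. This name rests on the phagocyte markers alone, and a difference in dissection was not tested. At 6 weeks, control-diet stroke replicate 4 was also low, at 192.8 CPM, and was left out only when single libraries were left out in turn. Choroid plexus markers reached 955 CPM in 6-week high-fat stroke replicate 6 and 273.7 CPM in high-fat sham replicate 2, while their medians per group were between 11.3 and 36.3 CPM. Each comparison that holds a weakly injured library or a library high in choroid plexus markers is given with and without these libraries for all 6 genes.

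Promoter sequences were taken from a RefSeq table that matched 3 of the 6 genes, MCT1, MCT4 and GLUT1, and not MCT2, basigin and GLUT3. All 3 are shown, since MCT4 and GLUT1 are known targets of hypoxia-inducible factor 1. Each sequence runs from 250 bases before to 50 bases after the RefSeq start (GRCm38.p6, plus strand), and capitals mark the core letters of the hypoxia response element, ACGTG or GCGTG on either strand, with overlapping matches joined. The windows are chr3:104638414-104638713 for Slc16a1, chr11:120948817-120949116 for Slc16a3 and chr4:119108495-119108794 for Slc2a1.
Slc16a1: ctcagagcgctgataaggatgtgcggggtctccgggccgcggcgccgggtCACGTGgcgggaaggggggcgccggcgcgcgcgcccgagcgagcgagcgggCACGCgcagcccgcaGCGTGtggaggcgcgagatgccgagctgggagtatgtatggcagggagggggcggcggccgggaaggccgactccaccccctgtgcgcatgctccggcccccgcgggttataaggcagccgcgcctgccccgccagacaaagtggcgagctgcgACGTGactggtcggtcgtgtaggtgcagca
Slc16a3: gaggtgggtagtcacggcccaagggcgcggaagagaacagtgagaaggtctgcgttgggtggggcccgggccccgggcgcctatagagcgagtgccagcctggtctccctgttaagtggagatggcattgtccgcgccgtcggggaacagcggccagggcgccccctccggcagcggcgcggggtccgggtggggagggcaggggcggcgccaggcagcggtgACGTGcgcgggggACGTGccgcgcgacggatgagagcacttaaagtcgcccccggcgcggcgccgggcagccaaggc
Slc2a1: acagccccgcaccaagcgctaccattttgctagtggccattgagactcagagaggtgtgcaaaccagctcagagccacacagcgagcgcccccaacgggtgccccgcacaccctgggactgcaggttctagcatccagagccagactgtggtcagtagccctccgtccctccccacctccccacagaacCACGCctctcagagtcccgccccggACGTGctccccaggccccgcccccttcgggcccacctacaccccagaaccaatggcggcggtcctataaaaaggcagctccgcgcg
The Slc16a1 window held 4 separate matches, and the Slc16a3 and Slc2a1 windows held 2 each. Among 32851 mouse promoters of the same length, 43.8% held at least 1 match, 17.2% at least 2 and 2.33% at least 4. A match describes the letters and is not a binding site. In GENCODE M21 (GRCm38) the genes lie at chr3:104638668-104658462 on the plus strand (Slc16a1), chr11:120948480-120960868 on the plus strand (Slc16a3), chr10:125219270-125389465 on the minus strand (Slc16a7), chr10:79704491-79711969 on the plus strand (Bsg), chr4:119108711-119137983 on the plus strand (Slc2a1) and chr6:122727809-122801640 on the minus strand (Slc2a3). The counts were made on mm9 per the submitters' processing notes, so these positions describe the annotation only. An antisense gene, Gm12868, overlaps 105 exon bases of Slc2a1. Whether counting used strand is not given in the sources used here, so reads of this pair may be shared.

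Scaled by exon length as well (RPKM), basigin was the most abundant of the 6 transcripts, at 129 to 143 RPKM as means of the 6 groups. GLUT3 followed at 17.9 to 22.9 RPKM, then GLUT1 at 14.8 to 19.3 RPKM and MCT1 at 10.2 to 16.9 RPKM. MCT2 was at 3.07 to 3.77 RPKM and MCT4 at 0.491 to 1.46 RPKM. The rank order of the group means of GLUT3 and GLUT1 on this scale turned in 15-week high-fat stroke, where GLUT1 averaged 19.3 RPKM and GLUT3 17.9 RPKM. This turn depends on the exon lengths used. Without them GLUT3 was the higher in that group, at 129.8 against 67.5 CPM.

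**Figure D1:**
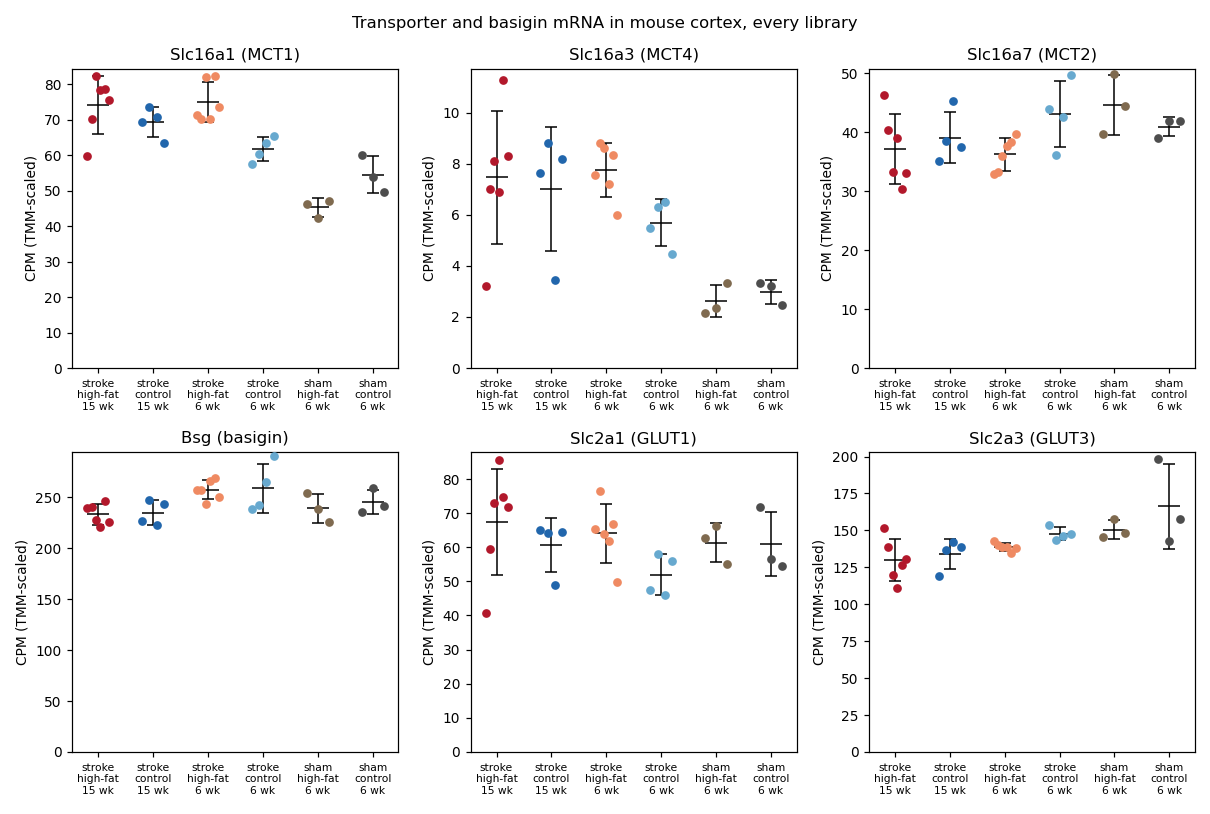
Level of each of the 6 genes (CPM, scaled by TMM) in every library, 1 point per library, with the group mean and SD as bars; groups run from 15-week high-fat stroke on the left to 6-week control-diet sham on the right. MCT4 stood at 4.48 CPM or more in the 6-week stroke libraries and at 3.33 CPM or less in the sham libraries, while basigin lay between 220.6 and 290.7 CPM in every library.

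After 6 weeks on the control diet, none of the 6 genes passed the threshold between stroke and sham, and MCT4 came nearest, with every stroke library above every sham library. MCT4 had 4.48, 5.49, 6.30 and 6.52 CPM in stroke libraries, against 2.46, 3.22 and 3.32 CPM in sham libraries. The 2 groups did not overlap, which was also so for 26.5% of the 16325 genes tested. The log2 difference was 0.92 ± 0.31 (SE), a 1.90-fold higher level, with an adjusted p of 0.0641 by edgeR's quasi-likelihood test with Benjamini-Hochberg adjustment. In a fit of these libraries alone the adjusted p was 0.00656, and it was 0.006 by limma voom, 0.0333 by DESeq2 and 0.0491 without control-diet stroke replicate 4. MCT4 was called in these 4 of 14 alternatives, and the largest adjusted p among the 14 was 0.224. The call on MCT4 therefore depended on the method and on the libraries kept, while the log2 difference lay between 0.71 and 1.02.

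MCT1 had 57.5, 60.3, 63.4 and 65.4 CPM in control-diet stroke libraries, against 49.7, 53.7 and 60.0 CPM in control-diet sham libraries. Only the lowest stroke library reached into the sham range. The log2 difference of 0.18 ± 0.09 had an adjusted p of 0.24 by the edgeR test, and 0.0452 by limma voom, where its log2 difference was 0.21 ± 0.07. MCT2, the neuronal transporter, differed by 0.07 ± 0.12 log2 units with an adjusted p of 0.775, and its stroke range of 36.2 to 49.7 CPM enclosed the sham range of 39.1 to 41.97 CPM. Basigin averaged 259 ± 24.1 CPM in stroke libraries (SD, n = 4) and 245.5 ± 12.1 CPM in sham libraries (SD, n = 3), and the edgeR fit gave a log2 difference of 0.08 ± 0.07 with an adjusted p of 0.529.

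Both glucose transporters had negative differences on the control diet. GLUT1 had 46.1, 47.6, 56.02 and 58.1 CPM in stroke libraries, against 54.6, 56.7 and 71.9 CPM in sham libraries, a log2 difference of -0.23 ± 0.17 with an adjusted p of 0.457 in the edgeR fit. GLUT3 had 143, 146.5, 147.5 and 154 CPM in stroke libraries, against 142.8, 157.5 and 198 CPM in sham libraries, and its log2 difference was -0.17 ± 0.09 with an adjusted p of 0.26. The ranges of both genes overlapped between stroke and sham. In all, 0 of the 6 genes were called in this comparison by edgeR, against 7.68% of all genes tested (5.1% higher and 2.57% lower in stroke). Of the 6, 1 (MCT4) had an unadjusted p under 0.05, 1 was called by DESeq2 and 2 by limma voom. Over all genes 3791 had an unadjusted p under 0.05, 1750 were called by DESeq2 and 2830 by limma voom. In bulk tissue, fewer cells of a type and less RNA per cell cannot be told apart, and this holds for every difference described here.

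On the high-fat diet, the contrast by which the genes were chosen, MCT1 and MCT4 were higher in every stroke library than in any sham library. MCT1 ranged from 70.2 CPM over a median of 72.4 to 82.3 CPM in the 6 stroke libraries, against 42.2, 46.3 and 47.2 CPM in sham libraries. The gap between the groups, 70.2 against 47.2 CPM, was wider than the range within either of them. The fitted log2 difference was 0.73 ± 0.09, a 1.66-fold higher level. MCT4 ranged from 6.00 over a median of 7.95 to 8.82 CPM in stroke libraries, against 2.16, 2.34 and 3.33 CPM in sham libraries, a log2 difference of 1.57 ± 0.29 or 2.97-fold. At these levels MCT4 remained the least abundant of the 6 transcripts per kilobase.

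MCT2 and GLUT3, the neuronal members, lay lower in high-fat stroke libraries. MCT2 ranged from 32.9 over a median of 36.8 to 39.7 CPM in stroke libraries, against 39.8, 44.4 and 49.9 CPM in sham libraries, with a log2 difference of -0.30 ± 0.11. GLUT3 ranged from 134.7 over a median of 138.8 to 142.7 CPM in stroke libraries, against 145.8, 148 and 158 CPM in sham libraries, with a log2 difference of -0.12 ± 0.08. Neither gene's stroke range reached its high-fat sham range, though for MCT2 the nearest libraries were at 39.68 CPM in stroke and 39.77 CPM in sham. Both separations depended on TMM scaling. With counts divided by the gene total alone, the stroke and sham ranges of both genes overlapped. Basigin and GLUT1 overlapped between stroke and sham, with log2 differences of 0.11 ± 0.06 and 0.06 ± 0.16. Thus 4 of the 6 genes did not overlap on this diet, a description only, since the genes were chosen by MCT1 in these libraries. Among all genes 26.5% did not overlap and 23.1% were called (14.2% higher and 8.85% lower in stroke). The count of all genes called on this diet, 3769, was 1833 without the 2 libraries high in choroid plexus markers and 1991 without high-fat sham replicate 2, which is one of them. Without the 2 libraries high in choroid plexus markers the log2 difference was 0.70 ± 0.11 for MCT1, 1.57 ± 0.37 for MCT4, -0.23 ± 0.12 for MCT2, 0.12 ± 0.07 for basigin, 0.20 ± 0.20 for GLUT1 and -0.07 ± 0.10 for GLUT3. The difference of GLUT3 was thus smaller without these libraries, and that of GLUT1 was larger. Over all alternatives it lay between 0.69 and 0.76 for MCT1 and between 1.29 and 1.78 for MCT4.

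**Figure D2:**
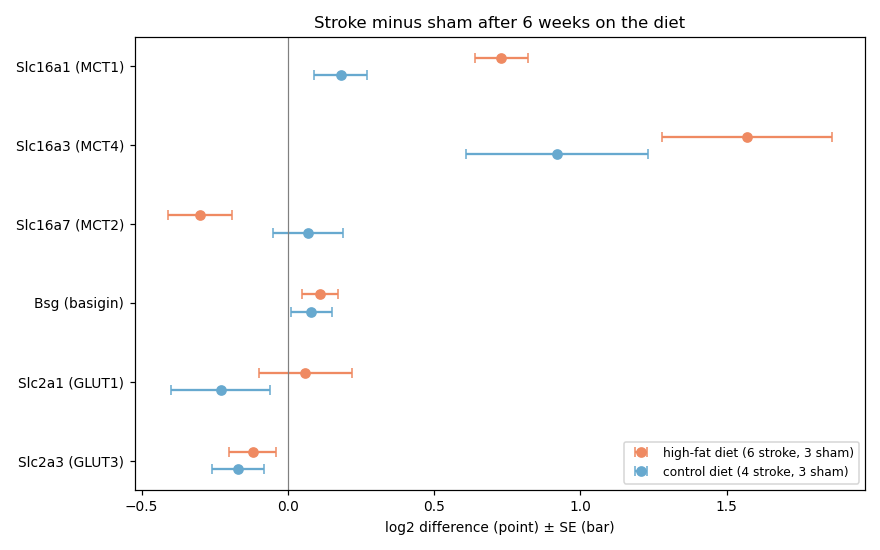
Log2 difference of stroke minus sham after 6 weeks for high-fat libraries (orange, upper point of each pair) and control-diet libraries (blue), with the SE as bars. MCT1 stands at 0.73 in high-fat and 0.18 in control-diet libraries, MCT4 at 1.57 and 0.92, and MCT2 at -0.30 and 0.07.

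Set against each other, the 2 stroke-minus-sham differences were 0.55 ± 0.12 log2 units apart for MCT1. The gap for MCT1 had 2 parts of like size, a higher level in high-fat stroke and a lower level in high-fat sham. High-fat stroke libraries ranged from 70.2 to 82.3 CPM, all above the 57.5 to 65.4 CPM of control-diet stroke libraries, a log2 difference of 0.28 ± 0.08. High-fat sham libraries ranged from 42.2 to 47.2 CPM, all below the 49.7 to 60.0 CPM of control-diet sham libraries, a log2 difference of -0.27 ± 0.10. These values share libraries with the contrast that chose MCT1 and are given without a test. Among all genes tested, 2.25% did not overlap between diets in 6-week stroke and 11.7% did not in sham.

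For the other 5 genes the surgery-by-diet difference was 0.65 ± 0.42 for MCT4, -0.37 ± 0.16 for MCT2, 0.03 ± 0.09 for basigin, 0.29 ± 0.24 for GLUT1 and 0.05 ± 0.12 for GLUT3. Without the 2 libraries high in choroid plexus markers it was 0.53 ± 0.15 for MCT1, 0.66 ± 0.48 for MCT4, -0.29 ± 0.17 for MCT2, 0.06 ± 0.10 for basigin, 0.44 ± 0.27 for GLUT1 and 0.11 ± 0.13 for GLUT3. Over 24 alternatives, which include leaving out each library, it lay between 0.47 and 0.63 for MCT1, 0.42 and 0.86 for MCT4 and -0.44 and -0.27 for MCT2. The same libraries entered the contrast that chose the genes, so no call was made. In the same contrast 0% of all 16325 genes were called by edgeR, 914 had an unadjusted p under 0.05, and 1 was called by DESeq2 and 1 by limma voom.

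Red blood cell markers differed between the diets in sham in the same direction as MCT1: their summed level was 78.3 to 108.5 CPM in high-fat sham libraries and 132 to 159 CPM in control-diet sham libraries. In 6-week stroke, unlike MCT1, they overlapped between the diets. They summed to 162.7 to 306.8 CPM in high-fat stroke (median of 179.9) and 153.9 to 219.6 CPM in control-diet stroke (median of 200). By edgeR 5 of 5 red blood cell markers were called higher in high-fat stroke against sham (median log2 difference of 1.18). In control-diet stroke against sham 0 were called (median of 0.49). Over all genes 23.1% and 7.68% were called in these comparisons. For surgery by diet 5 of 5 were positive (median of 0.71), with 0 called and 2 at an unadjusted p under 0.05. Endothelial markers, the cell type in which MCT1 and GLUT1 are best known, summed to 323 to 414 CPM in high-fat stroke libraries and 328 to 358 CPM in control-diet stroke libraries, against 244 to 300 CPM in high-fat sham libraries and 271 to 308 CPM in control-diet sham libraries. Of 12 endothelial markers 6 were called by edgeR in high-fat stroke against sham, all higher (median of 0.44). On the control diet 1 was called higher and 1 lower (median of 0.29). For surgery by diet 9 of 12 were positive (median of 0.20), with 0 called and 1 at an unadjusted p under 0.05. Summed oligodendrocyte markers overlapped among these 4 groups, at 4617 to 5828 CPM in high-fat stroke, 4065 to 5576 CPM in control-diet stroke, 3848 to 5565 CPM in high-fat sham and 4785 to 5383 CPM in control-diet sham libraries. Between diets 10 of 10 oligodendrocyte markers, taken one by one, had a positive log2 difference in 6-week stroke (median of 0.21) and 0 of 10 in sham (median of -0.11), and for surgery by diet 10 of 10 were positive (median of 0.38), with 0 called by edgeR and 3 at an unadjusted p under 0.05. In high-fat stroke against sham 2 of 10 were called, both higher (median of 0.28), and in control-diet stroke against sham 0 were called by edgeR, 0 had an unadjusted p under 0.05 and the median was -0.07. None of the markers of these 3 lists was at 0 in any library. The part of blood, vessel or oligodendrocyte RNA in the MCT1 differences was not tested.

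Between the diets within 6-week stroke, none of the 5 genes tested was called. MCT4 ranged from 6.00 over a median of 7.95 to 8.82 CPM in high-fat stroke libraries, against 4.48 to 6.52 CPM in control-diet stroke libraries, a log2 difference of 0.45 ± 0.24 with an adjusted p of 0.667 by the edgeR test. MCT2 ranged from 32.9 to 39.7 CPM in high-fat stroke libraries, against 36.2 to 49.7 CPM in control-diet stroke libraries, a difference of -0.25 ± 0.10 with an adjusted p of 0.667. Ranges of both genes overlapped between the diets. Over 18 alternatives, which include leaving out each library, the difference lay between 0.35 and 0.55 for MCT4 and -0.31 and -0.17 for MCT2.

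GLUT1 ranged from 49.9 over a median of 64.6 to 76.6 CPM in high-fat stroke libraries, against 46.1 to 58.1 CPM in control-diet stroke libraries, a difference of 0.30 ± 0.15 with an adjusted p of 0.667 in the edgeR fit. GLUT3 differed by -0.09 ± 0.08 with an adjusted p of 0.713, although its 6 high-fat stroke libraries (134.7 to 142.7 CPM) all lay below its 4 control-diet stroke libraries (143.2 to 154 CPM). With counts divided by the gene total alone, these 2 ranges overlapped. Basigin differed by -0.01 ± 0.06 with a 95% interval of -0.12 to 0.10. Without the 2 libraries high in choroid plexus markers the differences were 0.32 ± 0.09 for MCT1, 0.55 ± 0.26 for MCT4, -0.24 ± 0.10 for MCT2, 0.03 ± 0.06 for basigin, 0.40 ± 0.16 for GLUT1 and -0.05 ± 0.08 for GLUT3. The edgeR count was 0 of 5 genes, as were the DESeq2 and voom counts, with 1 gene (MCT2) at an unadjusted p under 0.05. Over all genes 0% were called, with 1141 genes at an unadjusted p under 0.05 and 0 called by DESeq2 and by voom.

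In sham cortex the diet groups overlapped for these 5 genes, and 0 of 5 were called by edgeR, DESeq2 or voom, with 0 at an unadjusted p under 0.05. Their log2 differences ran from -0.20 ± 0.34 for MCT4 to 0.13 ± 0.13 for MCT2, and the adjusted p-values of the edgeR fit from 0.965 to 1. Without the 2 libraries high in choroid plexus markers the differences were -0.21 ± 0.12 for MCT1, -0.11 ± 0.40 for MCT4, 0.05 ± 0.13 for MCT2, -0.02 ± 0.08 for basigin, -0.04 ± 0.21 for GLUT1 and -0.17 ± 0.11 for GLUT3. Over all genes 0% were called in this comparison, with 782 genes at an unadjusted p under 0.05 and 1 called each by DESeq2 and voom.

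After 15 weeks on the diet, libraries that had no part in choosing the genes showed no called difference between the diets. MCT1 ranged from 59.7 over a median of 76.9 to 82.4 CPM in high-fat stroke libraries, against 63.5, 69.3, 70.6 and 73.5 CPM in control-diet stroke libraries. Only 1 high-fat library lay below the control-diet range and 4 lay above it, and the ranges overlapped, as they did for all but 1.12% of genes tested. The log2 difference was 0.10 ± 0.08 with a 95% interval of -0.05 to 0.25 and an adjusted p of 0.735 by the edgeR test. The lowest high-fat value belongs to a weakly injured library. Without both weakly injured libraries the difference was 0.17 ± 0.08 with an adjusted p of 0.543.

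MCT4 ranged from 3.21 over a median of 7.55 to 11.3 CPM in 15-week high-fat stroke libraries, against 3.46, 7.66, 8.20 and 8.80 CPM in 15-week control-diet stroke libraries. The lowest MCT4 value of each diet came from its weakly injured library, and both lay near the sham maximum of 3.33 CPM. The log2 difference of 0.09 ± 0.24 had an adjusted p of 0.924 in the edgeR fit and was 0.03 ± 0.17 without these libraries. MCT2, basigin, GLUT1 and GLUT3 differed by -0.08 ± 0.10, -0.01 ± 0.06, 0.15 ± 0.15 and -0.05 ± 0.08 log2 units, with adjusted p-values from 0.766 to 0.967. Without the weakly injured libraries these 4 differences were -0.06 ± 0.10, -0.03 ± 0.06, 0.18 ± 0.12 and -0.06 ± 0.08. In this comparison edgeR, DESeq2 and voom called 0 of the 6 genes, 0 had an unadjusted p under 0.05, and DESeq2 gave MCT4 no adjusted p. Over all genes edgeR called 0% and DESeq2 called 8 genes, with 1299 at an unadjusted p under 0.05 and 0 called by voom.

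The change of the diet difference between 15 and 6 weeks was -0.18 ± 0.11 log2 units for MCT1, with no test because the 6-week high-fat stroke libraries chose it. For the other 5 genes it ran from -0.36 ± 0.34 (MCT4) to 0.17 ± 0.15 (MCT2), all with an adjusted p of 1, and 0 of 5 genes were called by edgeR, DESeq2 or voom, with 0 at an unadjusted p under 0.05. Over all genes 0% were called, with 792 at an unadjusted p under 0.05. Without the weakly injured libraries the change was -0.12 ± 0.10 for MCT1, -0.43 ± 0.23 for MCT4, 0.17 ± 0.13 for MCT2, -0.04 ± 0.08 for basigin, -0.13 ± 0.16 for GLUT1 and 0.02 ± 0.11 for GLUT3. Leaving out the 2 libraries high in choroid plexus markers gave -0.21 ± 0.12 for MCT1, -0.45 ± 0.36 for MCT4, 0.17 ± 0.14 for MCT2, -0.03 ± 0.08 for basigin, -0.23 ± 0.22 for GLUT1 and 0.02 ± 0.11 for GLUT3.

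**Figure D3:**
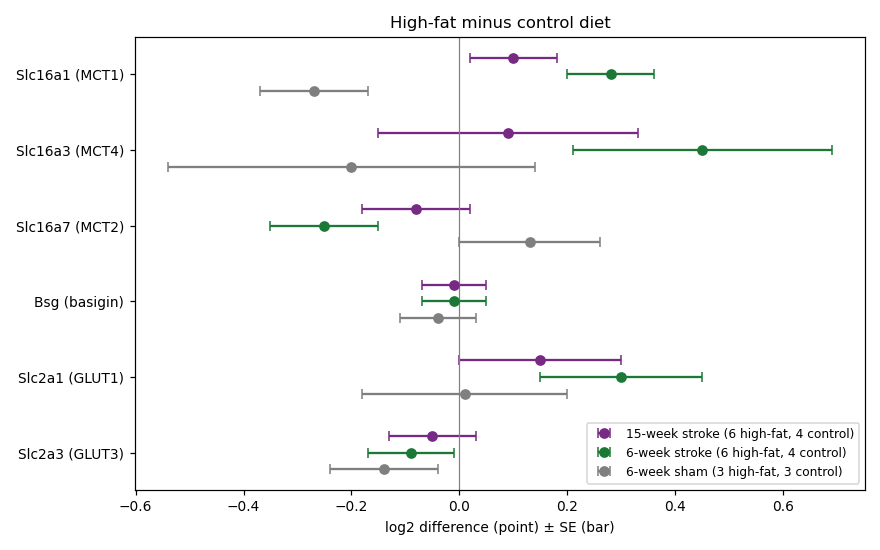
Log2 difference of high-fat minus control diet in 15-week stroke (purple), 6-week stroke (green) and 6-week sham (grey), with the SE as bars. MCT1 stands at 0.10, 0.28 and -0.27, and basigin lies within 0.04 of 0 in each setting.

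Comparing 15 with 6 weeks, control-diet stroke libraries gave log2 differences of 0.17 ± 0.08 for MCT1, 0.31 ± 0.26 for MCT4, -0.14 ± 0.11 for MCT2 and -0.14 ± 0.06 for basigin. The glucose transporters differed by 0.22 ± 0.16 (GLUT1) and -0.14 ± 0.08 (GLUT3), and all 6 adjusted p-values of the edgeR fit were between 0.26 and 0.577. MCT1 had 63.5 to 73.5 CPM in 15-week control-diet stroke libraries, against 57.5 to 65.4 CPM in 6-week ones, so the groups overlapped. GLUT3 had 119, 137, 138.6 and 142 CPM in 15-week control-diet stroke libraries, all below the 143 to 154 CPM of the 6-week ones, and 9.38% of all genes did not overlap in this comparison. None of the 6 genes was called by edgeR, DESeq2 or voom against 0.564% of all genes by edgeR, with 1 of them (basigin) at an unadjusted p under 0.05. Over all genes 2742 had an unadjusted p under 0.05, 274 were called by DESeq2 and 301 by voom. Without the weakly injured libraries the MCT4 difference was 0.55 ± 0.18 with an adjusted p of 0.0771, and the differences were 0.17 ± 0.08 for MCT1, -0.20 ± 0.10 for MCT2, -0.10 ± 0.07 for basigin, 0.33 ± 0.13 for GLUT1 and -0.15 ± 0.08 for GLUT3.

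On the high-fat diet, basigin had 220.6 over a median of 233.6 to 247 CPM in 15-week stroke libraries, against 244 over a median of 257.5 to 269 CPM in 6-week stroke libraries. The ranges overlapped by 1 library at each end, and 1.79% of all genes did not overlap. The log2 difference was -0.14 ± 0.05 with an adjusted p of 0.14 by edgeR and 0.041 by voom, where it was -0.16. MCT4, MCT2, GLUT1 and GLUT3 differed by -0.05 ± 0.21, 0.03 ± 0.09, 0.08 ± 0.13 and -0.10 ± 0.07, with adjusted p-values from 0.487 to 0.926, and the MCT1 difference, not tested, was -0.02 ± 0.07. Without the weakly injured libraries the differences were 0.05 ± 0.06 for MCT1, 0.11 ± 0.14 for MCT4, -0.03 ± 0.08 for MCT2, -0.14 ± 0.05 for basigin, 0.20 ± 0.10 for GLUT1 and -0.13 ± 0.07 for GLUT3, so those of MCT1, MCT4 and MCT2 changed sign. Leaving out the 2 libraries high in choroid plexus markers gave -0.02 ± 0.08 for MCT1, -0.11 ± 0.23 for MCT4, 0.06 ± 0.09 for MCT2, -0.15 ± 0.05 for basigin, 0.02 ± 0.14 for GLUT1 and -0.10 ± 0.07 for GLUT3. By edgeR 0 of the 5 genes tested were called against 2.35% of all genes. Of the 5, 1 (basigin) had an unadjusted p under 0.05, 0 were called by DESeq2 and 1 by voom. Over all genes 2897 had an unadjusted p under 0.05, 704 were called by DESeq2 and 1812 by voom.

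Over the 6 group means, MCT1 ran from 74.9 ± 5.73 CPM in 6-week high-fat stroke over 74.1 ± 8.14 in 15-week high-fat stroke, 69.2 ± 4.21 in 15-week control-diet stroke, 61.7 ± 3.45 in 6-week control-diet stroke and 54.5 ± 5.18 in control-diet sham to 45.2 ± 2.67 CPM in high-fat sham (SD). Each neighbour in this order overlapped with the next, except the 2 sham groups. For MCT4 the only neighbours in the order of group means that did not overlap were 6-week control-diet stroke and control-diet sham, and for GLUT3 they were 6-week control-diet stroke and 6-week high-fat stroke. For GLUT3 this held only with TMM scaling. For MCT2, basigin and GLUT1 all neighbours overlapped.

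Against the highest of all 6 sham libraries (60.0 CPM), MCT1 was higher in 5 of 6 high-fat and 4 of 4 control-diet stroke libraries at 15 weeks, and in 6 of 6 high-fat and 3 of 4 control-diet ones at 6 weeks. MCT4 was above all 6 sham libraries in 5 of 6, 4 of 4, 6 of 6 and 4 of 4 libraries of the same groups. GLUT3 was below all 6 sham libraries (142.8 CPM at the lowest) in 5 of 6 high-fat and 4 of 4 control-diet stroke libraries at 15 weeks, in 6 of 6 high-fat stroke libraries at 6 weeks and in 0 of 4 control-diet ones. The GLUT3 counts depended on TMM scaling. The highest 6-week high-fat stroke library had 142.7 CPM. With counts divided by the gene total alone, most libraries of that group lay above the lowest sham library. For the 15-week groups the sham libraries are of another time on the diet, and these counts carry no test.

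Within each library, the length-corrected levels of MCT1, MCT4 and MCT2 were also put in relation to their own sum, which does not depend on library scaling. MCT4 made up 6.81 ± 0.903% of the sum in 6-week high-fat stroke and 3.37 ± 0.692% in high-fat sham, and 5.77 ± 1.07% in 6-week control-diet stroke and 3.44 ± 0.357% in control-diet sham (SD). MCT2 made up 14.3 ± 1.15% in 6-week high-fat stroke and 26.1 ± 3.20% in high-fat sham, and 19.5 ± 1.93% in 6-week control-diet stroke and 21.3 ± 2.21% in control-diet sham. MCT1 held most of the sum in every group, with means from 70.6% in high-fat sham to 78.9% in 6-week high-fat stroke. The size of these shares depends on the exon lengths used. Without them MCT1 and MCT2 averaged 45.2 and 44.7 CPM in high-fat sham.

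The shares were tested where no library had chosen the genes, in control-diet stroke against sham and between diets at 15 weeks. The MCT4 share of control-diet stroke libraries (5.77%) and sham libraries (3.44%) had an exact two-sided permutation p of 0.0571, where 0.0286 is the smallest that 4 against 3 libraries allow, and an adjusted p of 0.457 over 8 tests. Between diets at 15 weeks, the MCT4 share was 6.49% in high-fat and 6.54% in control-diet libraries. The ratio of GLUT1 to GLUT3 at 15 weeks was 1.11 ± 0.353 in high-fat stroke and 0.943 ± 0.172 in control-diet stroke (SD, n = 6 and n = 4), with an exact permutation p of 0.419 and an adjusted p of 0.718. None of the 8 tests passed adjustment, and none had an unadjusted p under 0.05. For 4 against 3 libraries even a p of 0.0286 could not pass adjustment over 8 tests on its own. The lack of a call on the control-diet shares therefore decides nothing.

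Across libraries of the same group, MCT4 and MCT2 moved in opposite directions. After the group means were taken off, Pearson's r over the 26 libraries was -0.74 for MCT4 with MCT2, 0.68 for MCT4 with GLUT1, -0.61 for MCT2 with GLUT1, 0.54 for MCT1 with GLUT1 and 0.49 for MCT1 with MCT4. Basigin had values between -0.03 and 0.15 with the other 5 genes. These are descriptions, since the libraries share groups, depth and dissection.

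The same measure over 11538 genes with at least 5 CPM gave the transcripts nearest to each gene. Those of MCT4 were Cdc42se1 (r of 0.93, Spearman's rho of 0.89), Tgm1 (0.93 and 0.88) and the Fc receptor Fcgr3 (0.92 and 0.83), which is itself among the phagocyte markers. Those of MCT2 were Dmxl2 (0.95 and 0.95), Zkscan1 (0.94 and 0.91) and the glutamate receptor subunit Gria3 (0.91 and 0.93). MCT1 had lower values, with Cers5 (0.79 and 0.71), Esd (0.75 and 0.69) and Pola1 (0.74 and 0.66) nearest. GLUT1 was nearest to Itgb3 (0.88 and 0.81), P2rx4 (0.88 and 0.78) and Fen1 (0.87 and 0.84), GLUT3 to Rtn4rl1 (0.86 and 0.87), Ajap1 (0.84 and 0.84) and Arf3 (0.81 and 0.76), and basigin to Med30 (0.79 and 0.80), Tmem147 (0.78 and 0.83) and Ndfip1 (0.77 and 0.75). Without the 2 weakly injured libraries these r values were between 0.64 and 0.93.

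The stroke libraries lowest in phagocyte markers were also low in MCT4. In the 2 weakly injured libraries, with 72.7 CPM of phagocyte markers in the high-fat and 157 CPM in the control-diet library, MCT4 was 3.21 and 3.46 CPM, and MCT2 was 46.4 and 45.3 CPM, the highest MCT2 values of both 15-week groups. Control-diet stroke replicate 4 at 6 weeks, with 192.8 CPM of these markers, had the lowest MCT4 (4.48 CPM) and the highest MCT2 (49.7 CPM) of its group. Neuron markers summed to 5260 to 6202 CPM in 6-week high-fat stroke libraries and 5577 to 6434 CPM in 6-week control-diet stroke libraries, against 6936 to 7742 CPM in high-fat sham libraries and 6918 to 7184 CPM in control-diet sham libraries. The part of these cell types in the transporter differences was not tested.

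**Figure D4:**
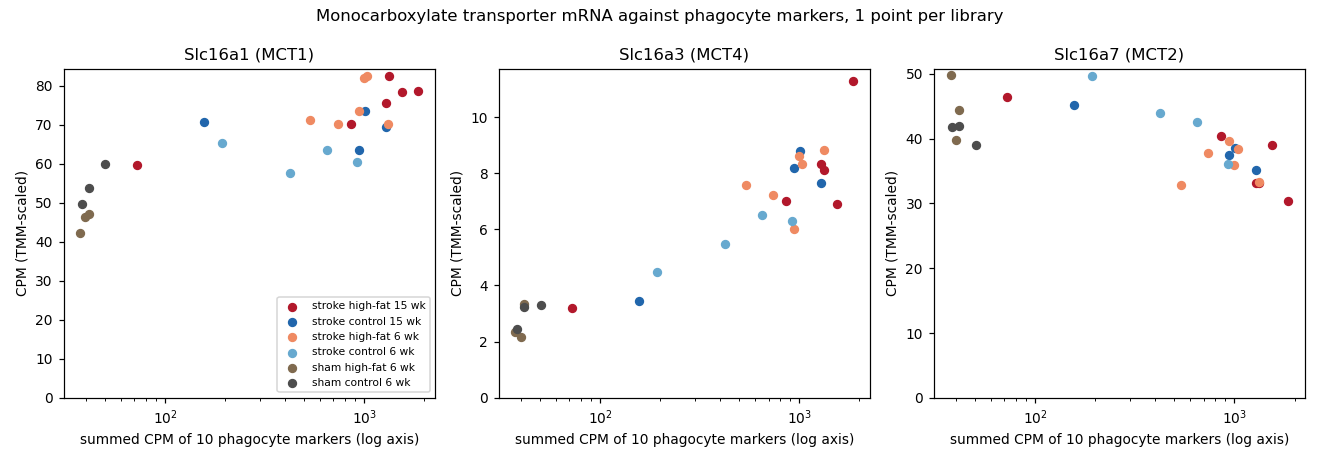
Levels of MCT1, MCT4 and MCT2 (CPM) against the summed level of 10 phagocyte markers (CPM, log axis), 1 point per library in the colour of its group. Sham libraries sit at 37.7 to 50.4 CPM of markers on the left, and the 15-week library with 1861 CPM of markers has the highest MCT4 level, 11.3 CPM, and the lowest MCT2 level, 30.4 CPM.

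Genes that make, use or sense the carried molecules were described by 8 lists with 88 genes, of which 78 were tested. In control-diet stroke 3 of them rose and 2 fell relative to sham, 6.41% of the list against 7.68% of all genes, and in high-fat stroke 11 rose and 9 fell, 25.6% against 23.1%. Neither share is far from that of all genes. The list medians on the control diet lay between -0.16 and 0.19 log2 units, against 0.00 over all genes. The diet comparisons in 15-week stroke, 6-week stroke and sham gave 0 of 78 by edgeR, DESeq2 and voom, with 7, 4 and 4 genes at an unadjusted p under 0.05.

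Among the 29 pathway genes plotted, which hold at most 4 of each list, the hexokinases Hk2 and Hk3 had the largest differences on both diets. Hexokinases trap glucose after it has entered. Hk2 averaged 10.2 ± 2.53 CPM in control-diet stroke and 3.77 ± 0.629 CPM in sham, a log2 difference of 1.43 ± 0.33 (adjusted p of 0.0126, edgeR). Hk3, an isoform of blood cells, averaged 5.83 ± 2.35 CPM in control-diet stroke and 1.26 ± 0.220 CPM in sham, a difference of 2.20 ± 0.60 (adjusted p of 0.028, edgeR). On the high-fat diet Hk2 rose by 1.39 ± 0.31 and Hk3 by 3.10 ± 0.59 log2 units, with adjusted p-values of 0.00263 and 0.000912. Hif1a, the oxygen-regulated subunit of hypoxia-inducible factor 1, averaged 158 ± 10.02 CPM in control-diet stroke and 124 ± 4.83 CPM in sham, and rose by 0.34 ± 0.10 on the control diet (adjusted p of 0.0363) and by 0.44 ± 0.09 on the high-fat diet (adjusted p of 0.00192). Of the 11 tested genes of its list, 9 had a positive log2 difference on each diet. On the high-fat diet 4 were called higher and 1 lower, against 14.2% and 8.85% of all genes. On the control diet 1 was called higher and 0 lower, against 5.1% and 2.57%. The other plotted genes of this list went both ways. In high-fat stroke against sham, Egln1 averaged 81.7 ± 2.76 against 99.96 ± 3.34 CPM and Bnip3 111 ± 8.50 against 129 ± 9.46 CPM. Arrdc4 averaged 9.67 ± 1.69 against 5.67 ± 0.725 CPM. On the control diet Egln1 averaged 83.9 ± 0.815 against 96.1 ± 3.54 CPM. Whether a response to hypoxia changed was not tested.

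The 2 genes that fell on the control diet were Pkm, the pyruvate kinase of most tissues, and Pygm, the muscle-type glycogen phosphorylase, which is also found in astrocytes. Pkm differed by -0.24 ± 0.07 (adjusted p of 0.0438, edgeR) and Pygm by -0.47 ± 0.11 (adjusted p of 0.0155, edgeR). On the high-fat diet Pygm fell as well (-0.52 ± 0.10, adjusted p of 0.00128), and Pkm had 1313 ± 55.6 CPM in stroke and 1431 ± 110 CPM in sham and was not called. These control-diet calls were fragile to single libraries. The count of 5 became 0 without control-diet sham replicate 3, 1 without control-diet sham replicate 2 or control-diet stroke replicate 2, and 2 without control-diet sham replicate 1 or control-diet stroke replicate 3. It was 17 in a fit of these libraries alone, 18 by voom and 10 by DESeq2. Over all genes these settings called 2453, 2830 and 1750 genes, against 1253 in the main fit.

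Among transporters outside the 6 genes, 0 of 11 other monocarboxylate transporters were called after stroke by edgeR on either diet. At an unadjusted p under 0.05 there were 3 on the high-fat and 5 on the control diet, DESeq2 called 1 on each diet and voom 3 on each. Over all genes 5892 on the high-fat and 3791 on the control diet had an unadjusted p under 0.05. DESeq2 called 3920 and 1750 genes on these diets, and voom 5814 and 2830. Slc16a4 came nearest on the control diet, with 4.77 ± 1.09 CPM in stroke and 2.85 ± 0.651 CPM in sham and an adjusted p of 0.0529. Of 10 other hexose transporters 3 rose and 1 fell on the high-fat diet by edgeR, against 14.2% and 8.85% of all genes. On the control diet 0 were called by edgeR and DESeq2 and 2 by voom, and 2 had an unadjusted p under 0.05. Those called on the high-fat diet include the fructose transporter Slc2a5 (0.52 ± 0.19, adjusted p of 0.0433), Slc2a10 (1.06 ± 0.36, adjusted p of 0.0356) and the proton-myo-inositol cotransporter Slc2a13 (-0.42 ± 0.10, adjusted p of 0.0044). Neuroplastin (Nptn), a basigin relative that can also carry monocarboxylate transporters to the membrane, fell by 0.24 on the log2 scale on the high-fat diet (adjusted p of 0.0418).

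Pdk4, a kinase that turns down pyruvate dehydrogenase, rose by 0.49 ± 0.10 log2 units on the high-fat diet (adjusted p of 0.00158), and Pdp1, the phosphatase that turns that enzyme on, fell (-0.52 ± 0.14, adjusted p of 0.00967). None of the 5 ketone body enzymes was called by edgeR after stroke on either diet, and 1 on each diet had an unadjusted p under 0.05. DESeq2 and voom called 0 of them in high-fat and 1 in control-diet stroke. Without the 2 libraries high in choroid plexus markers 10 genes of the lists were called on the high-fat diet in place of 20. Hk2, Hk3, Hif1a, Pygm and Pdk4 were among these 10, with adjusted p-values of 0.0295, 0.014, 0.0332, 0.0201 and 0.0128, and Slc2a5, Slc2a10, Slc2a13, Nptn and Pdp1 were not, with 0.157, 0.159, 0.117, 0.148 and 0.0778. Over 17 alternatives on the high-fat diet the first 5 of these genes were called in every one, Slc2a13 and Pdp1 in 15, Slc2a10 in 10, Nptn in 9 and Slc2a5 in 7. Leaving out single libraries gave counts from 11 (without high-fat sham replicate 2) to 21.

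**Figure D5:**
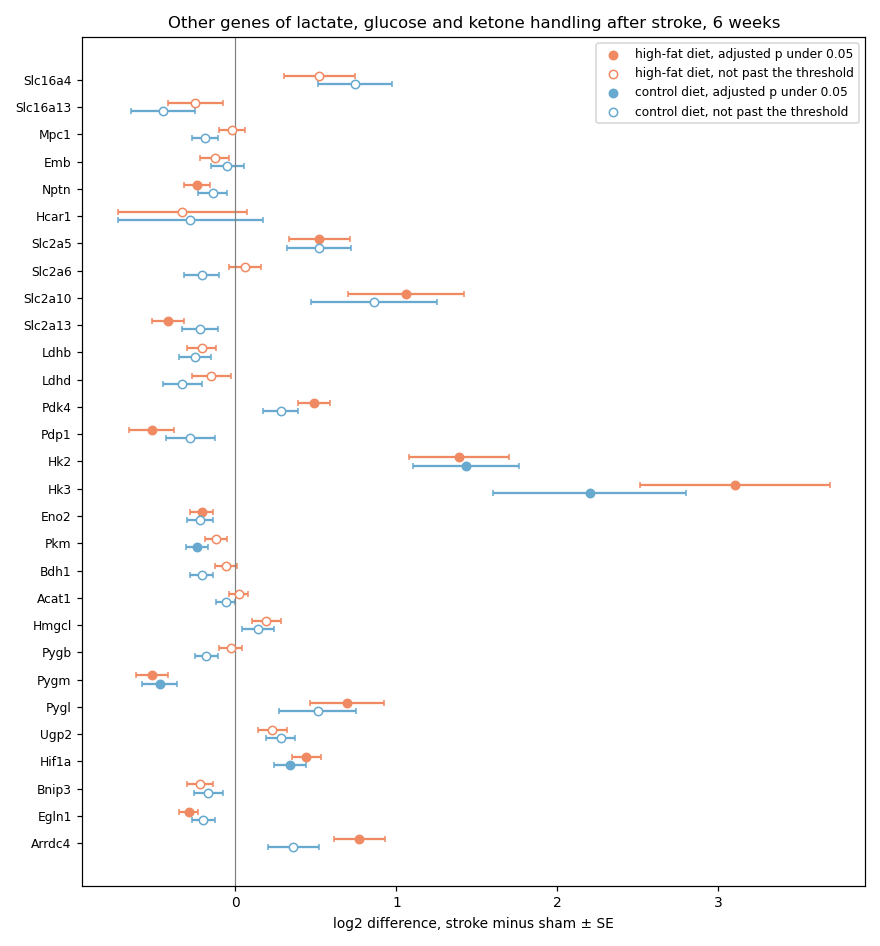
Log2 difference of stroke minus sham after 6 weeks for 29 genes of lactate, glucose and ketone handling, for high-fat libraries (orange, upper point of each pair) and control-diet libraries (blue), with the SE as bars; filled points have an adjusted p under 0.05. Hk2 and Hk3 stand farthest to the right on both diets.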

How the data were processed

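RNA of 26 mouse cortex libraries in 6 groups was measured by stranded paired-end sequencing of total RNA, per the labels' protocols. The deposited files hold whole-number counts for Ensembl gene identifiers, 1 file per library, which, as the values show, the authors left unnormalized. The submitters' processing notes name mm9 as the build and HTSeq, featureCounts, STAR and Trim Galore as tools, without their roles or versions. Summary entries (fragments outside genes, ambiguous and the like) held 45.69% to 58.16% of each table's counts and were left out. Symbols came from GENCODE M21, which matched 37607 of 39179 entries. Over 48 pairs of replicate libraries, chi-square per gene was 3.34 to 70.2 times its value under counting noise, so no pair was treated as 1 sample.

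The members, lists, tests and alternatives were chosen with earlier results of these data known. The edgeR 4.0.16 filter filterByExpr (minimum count 10) kept 16325 genes. TMM scaling and a robust quasi-likelihood fit of all libraries, with a mean for each of the 6 groups, followed in R 4.3.3. P-values were adjusted by Benjamini-Hochberg over all genes at 0.05, and an SE is the log2 difference divided by the square root of F. The fit and the permutation test were tested on simulated data. The biological coefficient of variation was 0.136. Pairs of groups that share libraries with the contrast that chose Slc16a1 are described without a test for Slc16a1, and the choosing contrast and surgery by diet for all members. RPKM used the union of exons in GENCODE M21. MCT shares and GLUT ratios went into exact two-sided permutation tests (SciPy 1.17.1). Marker lists, pathway lists and the promoter motif are as named in the report. Genes named beside the members are up to 4 per pathway list with the smallest p in control-diet stroke against sham, and the 3 nearest to each member by Pearson's r on log2 CPM (prior count of 2). Of the pathway genes so given, 2 are not reported here. Alternatives were RLE size factors, DESeq2 1.42.0, limma 3.58.1 voom with quality weights, no filter, a stricter filter (minimum count of 30), only the groups compared, a covariate (the share of fragments outside genes), and leaving out every library in turn or either of 2 pairs of doubted libraries. For the pathway genes and lists these alternatives were added after seeing the data.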

Additional observations from a re-analysis of the deposited data

Results flagged for a closer look

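GLUT1 (Slc2a1) in 15-week control-diet stroke replicate 3 was 48.81 CPM, while the other libraries of that group had 64.3, 64.6 and 64.99 CPM. The gap is large for a group of 4, and this was the only such library among 24 sets of values examined (6 genes in 4 groups), where chance gives about 1 in 20. The same library had 157 CPM of phagocyte markers, the lowest of its group.

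MCT1 (Slc16a1) went in opposite directions between the diets by operation at 6 weeks. Every high-fat stroke library lay above every control-diet stroke library, and every high-fat sham library lay below every control-diet sham library, a log2 difference of the differences of 0.55. This was not tested, because the libraries include those by which MCT1 was chosen.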

How the results depend on the processing

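No paired analysis was made, since the 6 groups hold different libraries and the labels pair none of them. The replicate numbers used here only count the libraries of each group in order. Relative to 0 members called in control-diet stroke against sham, a fit of the groups compared gave 1, DESeq2 1 and voom 2, and leaving out single libraries gave 0 to 1. In 15 against 6 weeks on the high-fat diet voom gave 1 in place of 0. Of the pathway lists, the control-diet count of 5 was 2 with no filter, 8 with a stricter filter, 2 with the covariate (share of fragments outside genes), 17 with only the groups compared, 18 by voom, 10 by DESeq2 and 0 to 6 without single libraries, and the high-fat count of 20 was 8 with the covariate, 10 without the choroid-high libraries and 11 to 21 without single libraries. The count of all genes called in control-diet stroke against sham ran from 303 to 2830 around 1253 and in high-fat stroke against sham from 1372 (with the covariate) to 5814 (voom) around 3769, and RLE size factors moved the median of all genes by at most 0.014 log2 units. Differences near 0 changed sign. With the covariate these were Bsg between diets at 15 weeks (0.01) and, in 15 against 6 weeks on the high-fat diet, Slc16a3 (0.28) and Slc16a7 (-0.12). By voom they were Slc16a3 (0.06) and Slc2a1 (-0.02) between diets in sham, Slc16a1 (0.03) and Slc16a7 (-0.01) in 15 against 6 weeks on the high-fat diet and Acat1 in high-fat stroke against sham (-0.01). Without the choroid-high libraries they were Acat1 there (-0.05), Bsg between diets in 6-week stroke (0.03) and Slc2a1 between diets in sham (-0.04). Without the weakly injured libraries they were Slc16a1 (0.05), Slc16a3 (0.11) and Slc16a7 (-0.03) in 15 against 6 weeks on the high-fat diet. The 6-week high-fat stroke level of Slc2a3 was 142.3 CPM in place of 139 with no scaling beyond the gene total. Leaving out single libraries gave ranges across 0 for Hcar1 (-0.59 to 0.10) in control-diet stroke against sham, and for Slc2a1 (-0.01 to 0.13), Mpc1 (-0.07 to 0.03) and Acat1 (-0.04 to 0.05) in high-fat stroke against sham, and for surgery by diet for Bsg (-0.01 to 0.09) and Slc2a3 (-0.09 to 0.17). Between diets they did so for Bsg in 6-week stroke (-0.05 to 0.05), Bsg (-0.06 to 0.02) and Slc2a1 (-0.05 to 0.14) in sham, and Slc16a3 (-0.12 to 0.24) and Bsg (-0.03 to 0.02) at 15 weeks. In 15 against 6 weeks on the high-fat diet they did so for Slc16a1 (-0.06 to 0.04), Slc16a3 (-0.20 to 0.10) and Slc16a7 (-0.04 to 0.09), and for diet by weeks for Bsg (-0.06 to 0.04) and Slc2a3 (-0.02 to 0.06). The MCT1 share in control-diet stroke minus sham ranged from -1.30 to 0.598 percentage points, and the MCT4 share between diets at 15 weeks from -1.16 to 0.588. The cause of these shifts was not tested. MCT4, at 2 to 11 CPM, is the member whose precision depth limits most.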
